A study of Mus musculus with 4 samples.

Results

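Chromatin and DNA methylation regulators were followed in laser-captured intestinal crypts of mice in which beta-catenin had been deleted. The set took in every gene whose array symbol starts with Dnmt, Hdac, Smarc, Cbx, Hmgb, Hmgn, Hmga or Chd and a digit, the Tet1, Tet2 and Tet3 genes, and 9 further genes added by name (Uhrf1, Hells, Dek, Ezh1, Ezh2, Eed, Suz12, Rbbp4 and Rbbp7). That rule found 65 of the 18193 genes that had a probe set carrying their symbol alone. The rule reads symbols only, but the set was proposed with earlier results of these data known.

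The 4 samples were crypt cells cut from mouse intestine. The mutant group (2 arrays) came from beta-catenin mutants on day 2 of a tamoxifen-induced deletion, and the control group (2 arrays) from control mice of the same time point. The labels do not name the Cre driver, the deleted exons, the strain, the age, the number of animals behind a sample, or whether the control mice received tamoxifen. Crypts hold stem cells, Paneth cells and dividing progenitors together, so in these bulk captures fewer cells of a type and less RNA per cell cannot be told apart. Whether the arrays of a group stand for separate animals is not stated, and the p-values measure only the spread between these arrays, which may be technical.

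Each value below is a log2 normalized signal, that is log2(intensity + 5) after quantile normalization, and each difference is mutant minus control on that scale. The brighter probe set of Ctnnb1, the targeted gene, had 12.02 and 11.85 in the mutant arrays, against 12.43 and 12.56 in the control arrays, a difference of -0.56 (SE 0.22). The dimmer kept probe set stood at 0.38 (SE 0.50) with overlapping groups. Where these probes lie relative to the deletion is not known here, so the labels could not be checked by them. Crypt base stem cell markers were present (Olfm4 had 10.93 and 11.20 in the mutants, against 12.52 and 12.32 in the controls), and all 9 tested ones were lower without overlap. Over all 11395 tested genes, 19.2% were lower and 18.9% higher without overlap. Of other cell markers, 5 of 8 goblet cell genes were higher without overlap and 3 of 5 Paneth cell genes lower, while all 9 enterocyte genes and all 4 endothelial genes overlapped. Median differences were 0.55 for the goblet and -0.24 for the Paneth cell genes. The 3 lower Paneth cell genes were Pla2g2a at -0.92 (SE 0.46), Itln1 at -0.24 (SE 0.23) and Lyz1 at -0.14 (SE 0.18). Leukocyte genes (7 tested) split with 1 lower and 2 higher, fibroblast and smooth muscle genes (9 tested) with 0 lower and 3 higher, and enteroendocrine genes (8 tested) with 1 lower and 3 higher. Mutant replicate 1 stood apart through 10 of 10 tested pancreatic acinar genes, whose mean was 12.77 there, against 4.11 in mutant replicate 2 and 4.41 and 4.45 in the controls. The beta-actin ratio of 5′ over 3′ signal, which drops in shortened RNA, was 0.0945 and 0.0448 in the mutants and 0.149 and 0.0567 in the controls, so the groups overlapped in it. The Gapdh ratio was 0.104 and 0.0267 in the mutants and 0.116 and 0.0582 in the controls, also with overlap. Both ratios were lower in replicate 2 of each group, and lower in each mutant array than in the control array of the same number. The part of RNA length in the differences was not tested.

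Chromatin packs DNA around histones, and the products of these genes set how tightly. DNA methyltransferases write methyl groups on CpG sites, with Dnmt1 copying them after replication and Dnmt3a and Dnmt3b placing new ones. Polycomb repressive complex 2 (PRC2) methylates histone H3, histone deacetylases (HDACs) strip acetyl groups, HP1 proteins bind silent heterochromatin, and SWI/SNF, ISWI and CHD remodellers slide or evict nucleosomes. Crypts hold dividing progenitors, and how far each of these genes follows cell division was not tested.

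The DNA methylation, HMG, HP1 and PRC2 genes were lower in the mutant crypts with few exceptions, while most Chd genes and, apart from Hdac6 (-1.41), the HDACs outside class I gave smaller differences of either sign with overlapping groups. Of the 65 genes, 55 passed the filter on dim probe sets, and 38 of these were lower and 17 higher in any amount. Both mutant values lay below both control values for 27 of the 55 genes, or 49.1%, against 19.2% of all 11395 tested genes. The reverse, both mutant values above both control values, held for 4 of the 55 genes (Tet3, Chd9, Ezh1 and Chd7), or 7.27%, against 18.9% of all tested genes. The median difference was -0.23 over the 55 genes and 0.0088 over all tested genes. Without mutant replicate 1, which carried the pancreatic transcripts, 30 of the 55 genes were lower and 13 higher than both controls, against 34.1% and 33.8% of all tested genes, with a median of -0.20. As the cumulative plot of differences shows, the curve of the chromatin genes lay to the left of that of all genes over most of its length.

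**Figure D1:**
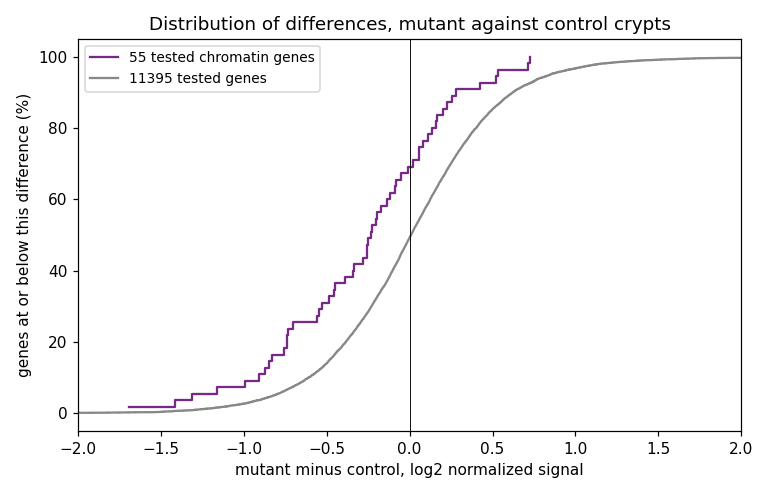
Cumulative share of genes (y axis, %) at or below each difference, mutant minus control in log2 normalized signal (x axis), for the 55 tested chromatin genes and for all 11395 tested genes. The chromatin genes crossed 0 at 69.1%, against 49.3% for all genes.

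No gene of the set passed the test across all probe sets (limma, Benjamini-Hochberg adjusted p under 0.05), which called 0 of 22519 probe sets and thus 0% of genes. The smallest adjusted p among the 55 genes was 0.768. At an unadjusted p under 0.05 there were 10 lower and 0 higher genes in the set, or 18.2% and 0%, against 3.62% lower and 3.32% higher among all tested genes. The 10 were Hells, Hdac6, Dek, Cbx5, Dnmt1, Ezh2, Uhrf1, Hmgb3, Hmgb2 and Smarca5. A difference of at least 2-fold with no overlap was seen for the lower genes Hells, Hdac6, Dek and Cbx5, 4 of 55 genes (7.27%), against 2.35% of all tested genes. No gene of the set was higher by that measure, against 2.57% of all tested genes. Hdac6 is dim and passed the filter through its control arrays, since its mutant mean of 4.57 lay below the minimum of 4.79. With 2 arrays a group, an exact two-sided permutation test of a single gene cannot go below p = 0.333.

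The separation depended on scaling: both mutant values lay below both control values for 17 of the 55 genes on the values as deposited (14.9% of all genes) and for 14 with median centring (10.1% of all genes). The 12 genes lower without overlap under quantile normalization, both other scalings and both other pseudocounts were Hells, Hdac6, Dek, Cbx5, Ezh2, Hmgb3, Hmgb2, Cbx1, Smarca5, Hmgn5, Dnmt3b and Smarcal1. Chd7 was the 1 gene higher without overlap under all of these.

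Markers of S phase and mitosis were lower alongside these genes. All 30 tested markers of that list were lower, with list means of 8.06 and 8.45 in the mutant arrays, against 8.98 and 9.47 in the control arrays, and their part in the chromatin results was not tested. Their median difference was -0.97, and 0 passed the test. The groups did not overlap for 27 of the 30, against 19.2% of all tested genes lower in that way.

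**Figure D2:**
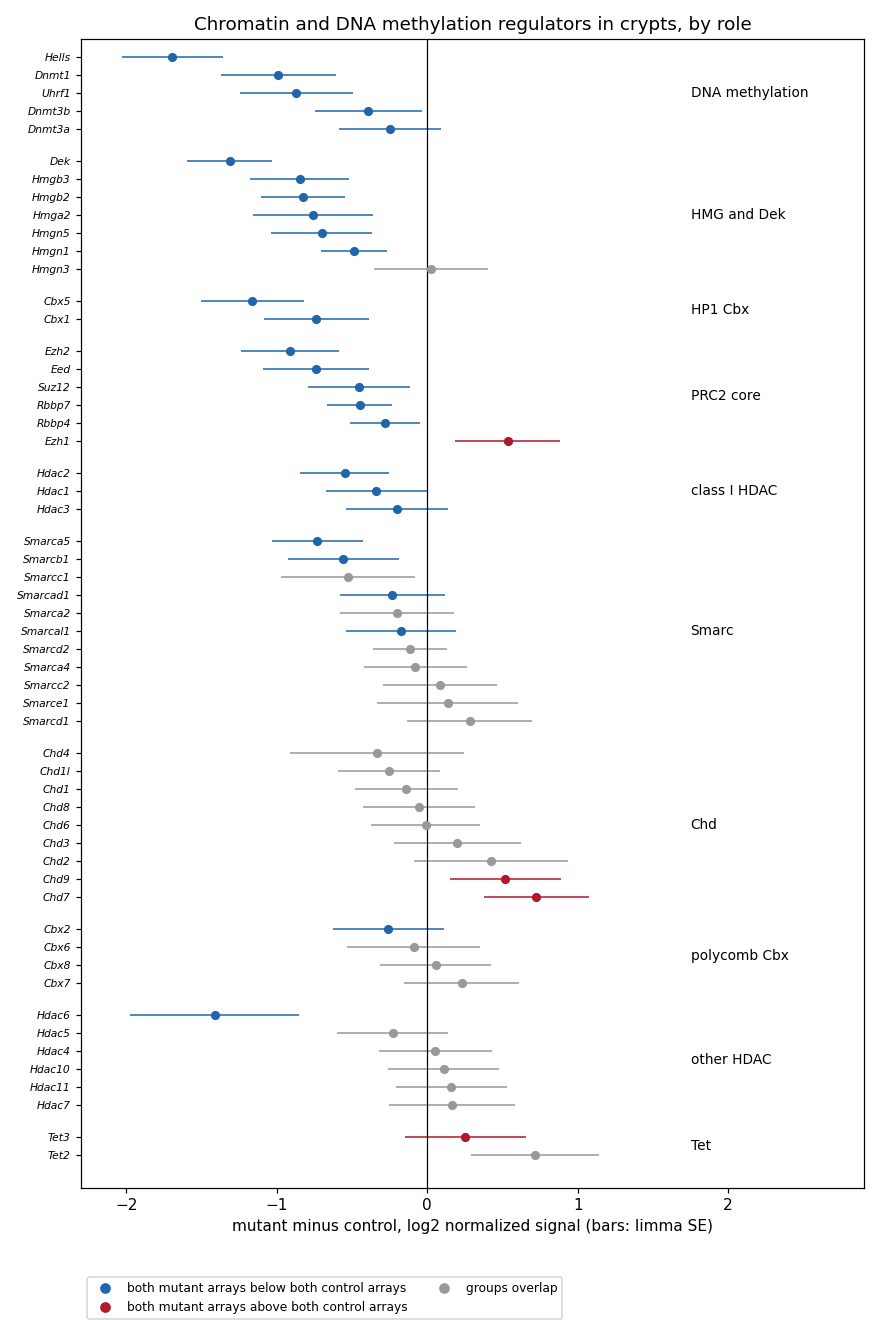
Difference of each tested gene, mutant minus control in log2 normalized signal (x axis, bars are the limma SE), grouped by role from top to bottom. Blue marks the 27 genes with both mutant arrays below both control arrays, red the 4 genes with both above, and grey the 24 genes whose groups overlap.

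Genes that carry DNA methylation through replication were lower, and Hells had the most negative difference of the 55 genes. Hells, the helicase LSH that opens heterochromatin to the methylation machinery, had 7.43 and 7.40 in the mutant arrays, against 8.99 and 9.23 in the control arrays. Its mean was 7.41 ± 0.02 in mutants and 9.11 ± 0.17 in controls (SD, n = 2 each), a difference of -1.69 (SE 0.34, 3.24-fold lower). The 2 arrays of each group lay far closer to each other than to the other group, and its other 2 kept probe sets stood at -1.15 and -1.02, also without overlap. With 1 array left out the Hells difference stayed between -1.81 and -1.58, and it was -1.71 without mutant replicate 1.

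Uhrf1, which recognises hemimethylated DNA and brings Dnmt1 to it, had 8.56 and 8.91 in the mutants, against 9.23 and 9.98 in the controls, a difference of -0.87 (SE 0.37). Without control replicate 2 the Uhrf1 difference was -0.50, and with median centring its groups overlapped. Dnmt1 itself had 9.73 and 9.81 in the mutants, against 10.23 and 11.29 in the controls, a difference of -0.99 (SE 0.38). The spread for Dnmt1 lay in the controls: leaving out control replicate 2 gave -0.46, and leaving out control replicate 1 gave -1.52. Its deposited intensities were 1103 and 749 in the mutants and 1094 and 2413 in the controls, so without scaling the groups overlapped, as they did with median centring. The other kept probe sets of Dnmt1 stood at -1.07 and -1.32, both without overlap. The Dnmt1 probe set used and the one at -1.32 have the x suffix, which marks probes that can also bind other transcripts.

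The de novo methyltransferases differed less. Dnmt3b had 6.62 and 6.85 in the mutants, against 7.27 and 6.98 in the controls (difference -0.39, SE 0.36), and stood at -0.25 without control replicate 1. The dimmer kept probe set of Dnmt3b stood at -0.10 (SE 0.42) with overlapping groups. Dnmt3a had 7.78 and 7.75 in the mutants, against 8.05 and 7.98 in the controls, a difference of -0.25 with a 95% interval of -1.03 to 0.52. Its probe sets disagreed: one of the other kept ones stood at -0.19, another at 0.29, and the dimmest, with 5.71 and 5.70 in the mutants against 3.30 and 4.80 in the controls, at 1.65. The dimmest lay near the filter minimum of 4.79, with control replicate 1 below it, and those at -0.19 and 0.29 had overlapping groups. The sign for Dnmt3a thus depends on the probe set, though the positive ones are a near-floor one and an overlapping one. With the probe set used, the Dnmt3a groups overlapped under both other scalings.

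Promoter sequence of the lower genes was examined for the letters of E2F sites, since E2F factors drive S phase genes. Windows of 300 bases (250 before and 50 from an annotated start, RefSeq, GRCm38.p6) were matched by symbol for 54 of the 65 genes. Such a start is not always the outer end of the gene. The windows of Hells and Dek lie inside the gene spans, chr19:38930262-38970470 and chr13:47084767-47107530. A match to E2F letters meant TTCGCGC, or else the letters TTGGCGC, or else the letters TTCCCGC, on either strand. The cell cycle element CHR (TTTGAA) and the TCF motif of the Wnt pathway (CTTTGAA, or else the letters CTTTGAT) were searched likewise, and the first TCF form contains the CHR letters. E2F letters were in 11 of 31 windows of the genes lower without overlap (35.5%), in 2 of 22 windows of the overlapping genes (9.09%) and in 0 of 4 windows of the higher genes. The shares were 14.1% of the 11849 windows of tested genes and 8.07% of all 32851 windows. TTTGAA was in 9 of the 31 windows (29%), against 12% of the windows of tested genes, and the TCF letters in 2 of 31 (6.45%), against 6.06%. A match describes letters and is neither a site nor a cause.

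The Hells window (chr19:38930740-38931039, plus strand) and the Uhrf1 window at the gene's annotated start (chr17:56303087-56303386, plus strand) are shown because both genes carry such letters, in capitals. They lie at window positions 190 and 208 in Hells and 203 in Uhrf1, counted from 1 at the 5′ end. A further Uhrf1 window held 1 more match. Of the 24 lower genes with a window, 10 carried E2F letters. Cbx5, Hdac6, Smarca5, Hmgb2 and Hmgb3 were among the lower genes with 0 matches to them.

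Hells: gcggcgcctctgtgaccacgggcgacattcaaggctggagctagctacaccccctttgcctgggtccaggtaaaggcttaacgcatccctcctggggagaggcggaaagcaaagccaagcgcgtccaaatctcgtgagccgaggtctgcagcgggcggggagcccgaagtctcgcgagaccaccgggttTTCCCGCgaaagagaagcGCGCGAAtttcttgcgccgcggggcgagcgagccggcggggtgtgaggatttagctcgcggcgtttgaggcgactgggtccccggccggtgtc

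Uhrf1: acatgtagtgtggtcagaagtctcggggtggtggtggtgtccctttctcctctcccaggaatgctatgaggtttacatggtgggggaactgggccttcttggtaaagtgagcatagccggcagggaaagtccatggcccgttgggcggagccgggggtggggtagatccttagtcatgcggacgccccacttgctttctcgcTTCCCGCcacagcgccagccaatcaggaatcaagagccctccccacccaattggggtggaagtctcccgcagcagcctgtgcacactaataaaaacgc

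High mobility group (HMG) genes and Dek, which code for abundant proteins that bend DNA or bind nucleosomes, were lower in 6 of 7 tested cases without overlap. Of all tested genes, 19.2% were lower in that way. Dek, a chromatin protein of dividing cells, had 9.996 and 9.79 in the mutant arrays, against 11.08 and 11.34 in the control arrays, a difference of -1.31 (SE 0.28, 2.49-fold lower). Each mutant array was at least 1 log2 unit below each control array, and leaving out 1 array gave -1.45 to -1.18.

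Hmgb2, the HMG box protein of proliferating cells, had 10.57 and 10.69 in the mutants, against 11.68 and 11.23 in the controls, a difference of -0.83 (SE 0.28). Hmgb3 had 8.88 and 9.17 in the mutants, against 9.68 and 10.07 in the controls, a difference of -0.85 (SE 0.33). The other 2 kept probe sets of Hmgb2 stood at -1.56 and -0.27, both without overlap. Hmgn1, a nucleosome binding protein, had 12.33 and 12.72 in the mutants, against 13.03 and 12.99 in the controls (difference -0.49, SE 0.22). The Hmgn1 difference depended on scaling, and was -0.16 without any and -0.044 under median centring, with overlapping groups in both. The Hmgb2 difference was -0.50 with median centring, without overlap. The Hmgb2 and Hmgn1 probe sets used have the x suffix, which marks probes that can also bind other transcripts.

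Hmga2 (-0.76, or -0.33 without control replicate 2) and Hmgn5 (-0.70, or -0.47 without control replicate 1) were also lower without overlap, in Hmga2 not with median centring, and Hmgn3 stood at 0.023 with overlapping groups. Hmgb1 and Hmga1 were not analysed here.

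The Dek window (chr13:47106172-47106471, minus strand) is shown with its E2F letters at positions 208 and 247 in capitals.

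Dek: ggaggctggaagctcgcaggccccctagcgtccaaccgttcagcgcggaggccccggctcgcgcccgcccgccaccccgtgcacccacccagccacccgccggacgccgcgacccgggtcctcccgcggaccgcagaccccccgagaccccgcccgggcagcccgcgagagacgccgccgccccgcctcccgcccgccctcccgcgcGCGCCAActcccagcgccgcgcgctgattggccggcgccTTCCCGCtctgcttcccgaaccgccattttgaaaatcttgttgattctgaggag

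HP1 genes, whose proteins read methylated histone H3 in heterochromatin, stood lower in both tested cases. Cbx5, which codes for HP1 alpha, had 7.35 and 7.64 in the mutant arrays, against 8.62 and 8.70 in the control arrays, a difference of -1.16 (SE 0.34, 2.24-fold lower). Its other 2 kept probe sets, at -0.63 and -0.66, also separated the groups. Cbx1, which codes for HP1 beta, had 9.07 and 9.14 in the mutants, against 10.19 and 9.50 in the controls, a difference of -0.74 (SE 0.35). Without control replicate 1 it was -0.39, and with median centring -0.49, still without overlap. Each of its other 4 kept probe sets was lower, at -0.56 to -0.22, and the groups of 2 of them overlapped. Cbx3 (HP1 gamma) had a probe set of its own only below the filter, at a mean of 3.84.

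PRC2 genes separated the groups in all 6 tested cases after quantile normalization, with 5 lower and 1 higher, against 19.2% and 18.9% of all tested genes. This depended on scaling: Ezh2 and Suz12 alone separated the groups on the values as deposited, and Ezh2 alone with median centring. Ezh2, the catalytic subunit of dividing cells, had 8.65 and 8.94 in the mutant arrays, against 9.83 and 9.58 in the control arrays, a difference of -0.91 (SE 0.33). Ezh1, the alternative catalytic subunit found in resting and differentiated cells, had 8.09 and 7.93 in the mutants, against 7.34 and 7.60 in the controls, a difference of 0.53 (SE 0.35). The log2 ratio of Ezh2 to Ezh1 within an array was 0.56 and 1.01 in the mutants, against 2.48 and 1.98 in the controls, so the pair differed by -1.45. Ratios across probe sets carry each probe set's own brightness. Their difference between groups is less affected by it but not free of it, since fold changes on this scale understate dim genes. 

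Eed, which binds the histone mark that PRC2 makes, had 9.16 and 8.55 in the mutants, against 9.45 and 9.73 in the controls (difference -0.74, SE 0.35), and stood at -0.43 without mutant replicate 2. Suz12, the scaffold of the complex, had 9.21 and 9.86 in the mutants, against 10.10 and 9.88 in the controls (difference -0.46, SE 0.34). Mutant replicate 2 lay next to the controls for Suz12, whose difference was -0.13 without mutant replicate 1 and -0.19 with median centring, and its other 4 kept probe sets were lower with overlapping groups.

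The histone chaperone subunits differed less. Rbbp7 had 12.07 and 12.21 in the mutants, against 12.66 and 12.52 in the controls (difference -0.45, SE 0.22). On the values as deposited Rbbp7 stood at -0.19, and with median centring at -0.072. Rbbp4 stood at -0.28 (SE 0.23), at -0.063 as deposited and at 0.056 with median centring, while its 2 dimmer kept probe sets stood at -1.65 and -0.99. Both brightest probe sets have the x suffix, and these related genes may share probe signal.

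E2F letters were in 3 of 6 windows of PRC2 genes. The windows of the lower genes Eed and Rbbp7 had 0 matches to them, and that of Rbbp7 had 0 matches to any of the 3 motifs. Windows of Ezh2 (chr6:47594981-47595280, minus strand, position 255) and Suz12 (chr11:79992856-79993155, plus strand, position 33) are shown with those letters in capitals. The Ezh1 window (chr11:101226414-101226713, minus strand), with 0 matches to any of the 3 motifs, is shown beside that of its paralog.

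Ezh2: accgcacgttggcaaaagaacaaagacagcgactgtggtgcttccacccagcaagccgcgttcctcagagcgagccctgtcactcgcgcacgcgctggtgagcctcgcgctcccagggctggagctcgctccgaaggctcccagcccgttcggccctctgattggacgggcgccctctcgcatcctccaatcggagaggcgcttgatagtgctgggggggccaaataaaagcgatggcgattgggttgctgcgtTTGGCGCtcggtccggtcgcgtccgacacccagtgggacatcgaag

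Suz12: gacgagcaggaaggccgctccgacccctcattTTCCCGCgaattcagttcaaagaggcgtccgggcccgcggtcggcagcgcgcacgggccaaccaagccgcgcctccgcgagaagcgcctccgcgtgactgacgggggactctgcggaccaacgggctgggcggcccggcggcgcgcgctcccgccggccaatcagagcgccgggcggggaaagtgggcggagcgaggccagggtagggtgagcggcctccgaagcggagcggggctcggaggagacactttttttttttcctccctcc

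Ezh1: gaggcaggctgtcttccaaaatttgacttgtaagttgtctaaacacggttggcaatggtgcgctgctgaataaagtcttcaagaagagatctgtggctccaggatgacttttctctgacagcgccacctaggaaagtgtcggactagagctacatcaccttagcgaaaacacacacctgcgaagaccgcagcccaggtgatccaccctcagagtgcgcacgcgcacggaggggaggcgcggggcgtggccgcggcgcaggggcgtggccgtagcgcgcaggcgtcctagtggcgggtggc

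**Figure D3:**
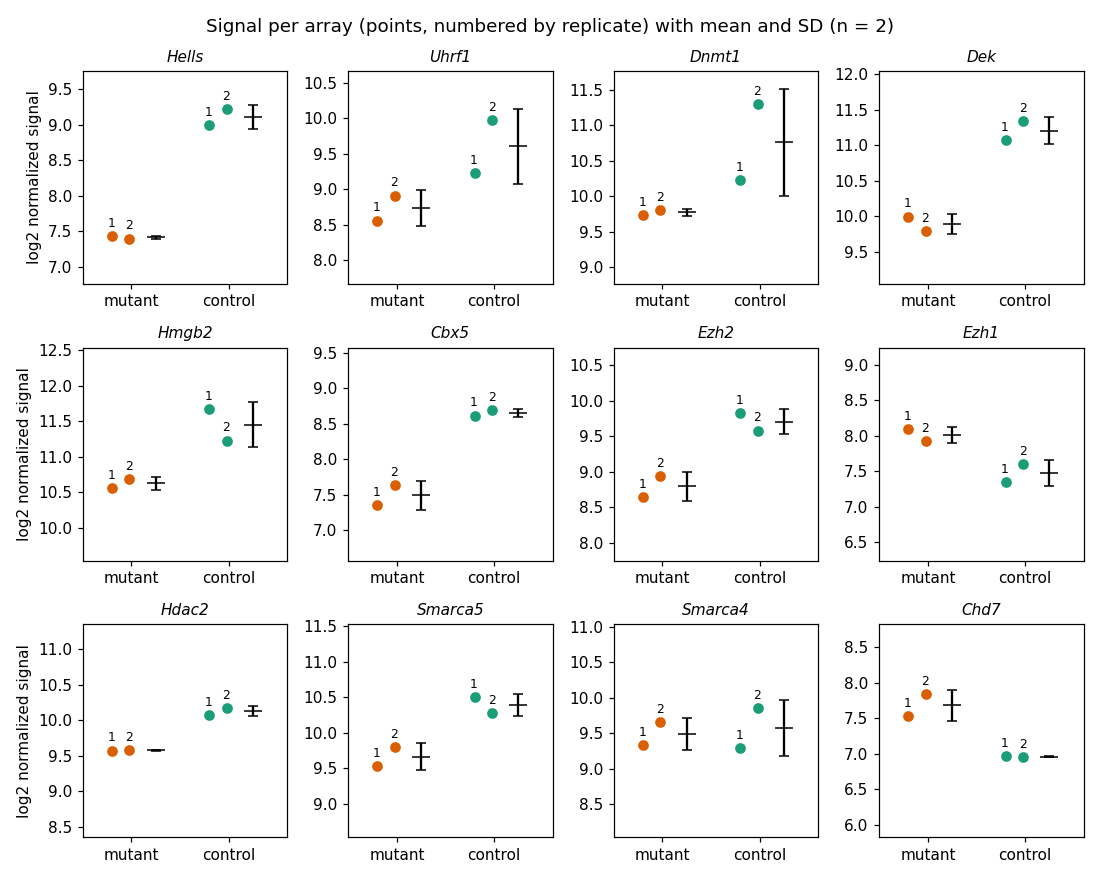
Log2 normalized signal (y axis, each panel spans the same range) of 12 chromatin genes in the mutant and control arrays. Points are arrays numbered by replicate, and the bar beside them is the mean with its SD (n = 2). The mutant points lie below the control points in all panels except Ezh1 and Chd7, where they lie above, and Smarca4, where they overlap.

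Class I HDAC genes, the nuclear deacetylases of co-repressor complexes, were all lower by small amounts. Hdac2 had 9.57 and 9.58 in the mutant arrays, against 10.08 and 10.18 in the control arrays, a difference of -0.55 (SE 0.30). Its dimmer kept probe sets stood at -0.72 and -0.40, both with overlapping groups. Hdac1 had 8.94 and 9.07 in the mutants, against 9.11 and 9.58 in the controls (difference -0.34, SE 0.34). Hdac3 stood at -0.20 with a 95% interval of -0.97 to 0.57. On the values as deposited, and likewise with median centring, the groups of all 3 genes overlapped, and with that centring Hdac2 stood at -0.28 and Hdac1 at -0.10. Without control replicate 2 Hdac1 also stood at -0.10.

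Outside class I, 1 of 6 tested HDAC genes was lower without overlap and 0 higher, against 19.2% and 18.9% of all tested genes. Hdac6, a mainly cytoplasmic tubulin deacetylase, had 5.33 and 3.81 in the mutants, against 5.75 and 6.23 in the controls, a difference of -1.41 (SE 0.56). This is a dim probe set, with deposited intensities of 38.5 and 8 in the mutants and 57.8 and 67 in the controls. Its mean was 4.57 in the mutants, below the filter minimum of 4.79, and 5.99 in the controls. It was thus kept through the control arrays. Mutant replicate 2 carried most of the Hdac6 difference, which was -0.65 without that array. Hdac5, Hdac4, Hdac10, Hdac11 and Hdac7 stood between -0.23 and 0.17 with overlapping groups.

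Smarc genes, the subunits of SWI/SNF and ISWI remodellers, gave a mixed picture. Without overlap, 4 of 11 were lower and 0 higher, against 19.2% and 18.9% of all tested genes. Smarca5 (SNF2H), the ISWI motor that spaces nucleosomes, had 9.53 and 9.79 in the mutant arrays, against 10.50 and 10.28 in the control arrays, a difference of -0.73 (SE 0.30). Its other 2 kept probe sets, at -1.75 and -0.94, also separated the groups. Smarcb1, a core SWI/SNF subunit, had 7.21 and 7.53 in the mutants, against 7.68 and 8.17 in the controls (difference -0.56, SE 0.37). Smarcb1 stood at -0.32 without control replicate 2, and its groups overlapped with median centring. Smarca5 stood at -0.47 with that centring, without overlap. The other genes lower without overlap, Smarcad1 (-0.23) and Smarcal1 (-0.18), both code for SNF2-type helicases outside these complexes and differed by less than their SE.

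Smarca4 (BRG1), the main SWI/SNF motor, had 9.33 and 9.65 in the mutants, against 9.29 and 9.85 in the controls. The groups overlapped, and the difference of -0.080 had a 95% interval of -0.86 to 0.70, turning to 0.068 on the values as deposited. Its other kept probe set stood at 0.17. Smarcc1 had 9.30 and 10.03 in the mutants, against 9.60 and 10.78 in the controls (difference -0.53, SE 0.45), and Smarcd1 stood at 0.28 (SE 0.42). The paralog Smarca2 (BRM) stood at -0.20, Smarcd2 at -0.12, Smarcc2 at 0.083 and Smarce1 at 0.14, all with overlapping groups. The dimmer kept probe sets of Smarcc1, at -0.73, and of Smarce1, at -0.38, were lower without overlap. For Smarce1 this was the opposite sign to the probe set used.

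Chd genes, the chromodomain remodellers, differed little as a group. Of 9 tested, 0 were lower and 2 higher without overlap, a share of higher genes near the 18.9% of all tested genes. Chd7, known for its role at enhancers, had 7.53 and 7.84 in the mutant arrays, against 6.96 and 6.95 in the control arrays, a difference of 0.72 (SE 0.35, 1.65-fold higher). The dimmer kept probe set of Chd7 stood at 0.23 with overlapping groups. Chd9 had 7.67 and 7.45 in the mutants, against 6.78 and 7.30 in the controls (difference 0.52, SE 0.37), and its dimmer kept probe set had the opposite sign, at -0.18. The Chd9 groups overlapped under both other scalings.

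Chd4, the motor of the NuRD repressor complex, had 7.79 and 6.94 in the mutants, against 6.84 and 8.56 in the controls. The control arrays lay farther apart than the groups did, and the difference of -0.33 (SE 0.58) turned to 0.52 without control replicate 2. Chd2 had 7.86 and 9.38 in the mutants, against 8.46 and 7.93 in the controls, and stood at 0.42 with mutant replicate 2 above all others. The dimmer kept probe set of Chd2 stood at 0.24 without overlap. Chd1l stood at -0.26 (SE 0.34), and Chd1, Chd3, Chd6 and Chd8 lay between -0.14 and 0.20, all with overlapping groups.

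The polycomb Cbx genes, which code for readers in the PRC1 complex, lay near 0, with 1 of 4 lower without overlap. Of all tested genes, 19.2% were lower in that way. Cbx2 had 5.90 and 5.87 in the mutant arrays, against 6.25 and 6.05 in the control arrays (difference -0.26, SE 0.37). Cbx6, Cbx8 and Cbx7 stood at -0.09, 0.06 and 0.23 with overlapping groups. Cbx6 had 6.82 and 7.96 in the mutants, so that its control values of 7.54 and 7.42 lay between them.

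Tet genes, whose enzymes oxidise methylated cytosine, were both on the higher side. Tet2 had 7.24 and 7.90 in the mutant arrays, against 6.46 and 7.25 in the control arrays, a difference of 0.71 (SE 0.43) with overlapping groups. Under median centring (0.75), and likewise without scaling (0.64), the Tet2 groups did not overlap. The difference was 0.32 without control replicate 1, and its other kept probe set stood at 0.029. Tet3 had 5.45 and 5.60 in the mutants, against 5.25 and 5.28 in the controls (difference 0.25, SE 0.40), and its groups did not overlap, but they did on the values as deposited, where the difference was 0.12. Both intervals included 0, at -0.26 to 1.69 for Tet2 and -0.67 to 1.17 for Tet3.

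**Figure D4:**
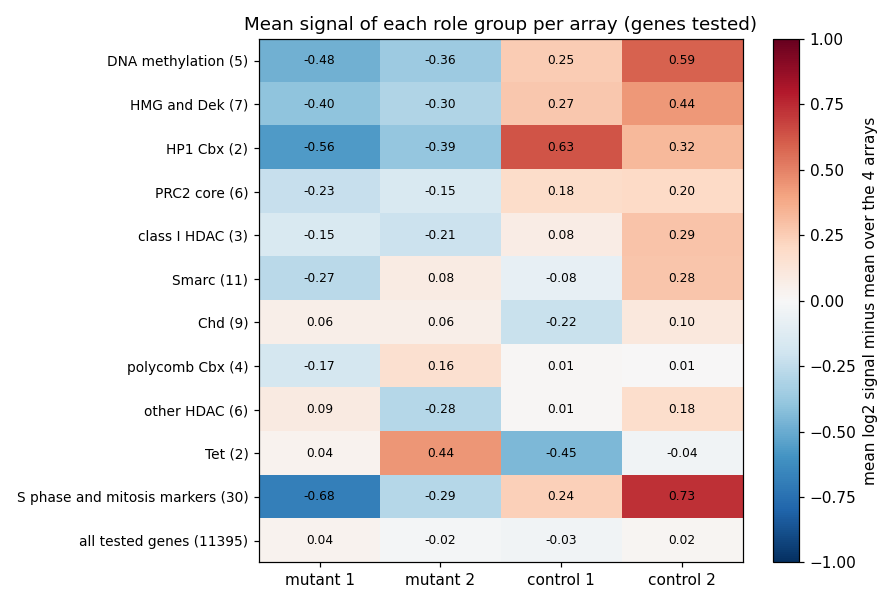
Mean log2 normalized signal of each role group per array, less the mean over the 4 arrays (colour and number), with the number of genes tested in parentheses and the mutant arrays on the left. The DNA methylation, HMG, HP1, PRC2 and class I HDAC rows and the S phase and mitosis row are negative in both mutant arrays and positive in both control arrays, while the row of all tested genes stays between -0.03 and 0.04.

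Role groups ordered by their median difference ran from HP1 (-0.95, 2 genes), DNA methylation (-0.87, 5 genes) and HMG with Dek (-0.76, 7 genes) through PRC2 (-0.45, 6 genes), class I HDAC (-0.34, 3 genes) and Smarc (-0.18, 11 genes) to polycomb Cbx (-0.02, 4 genes), Chd (-0.01, 9 genes), other HDAC (0.08, 6 genes) and Tet (0.48, 2 genes). Differences between these groups were not tested. In the heat map of role means, control replicate 2 was the highest array for the DNA methylation genes, at 0.59, and also for the S phase and mitosis markers, at 0.73. Mutant replicate 1 was the lowest array for both, at -0.48 and -0.68.

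Of 51 further kept probe sets of the tested genes, 44 had the sign of the one used. Among the 27 lower genes, 17 had further kept probe sets, and these all had the same sign for 16. The exception was Dnmt3a.

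The remaining 10 genes had no probe set above the filter and were not tested. These were Smarca1, Hdac8, Hdac9, Hmga2-ps1, Tet1, Chd5, Cbx3, Dnmt3l, Smarcd3 and Hmgb4, with mean signals of 4.54 down to 2.67 against the minimum of 4.79. The dimmest genes that were tested were Hdac6 and Smarcd1, at 5.28 and 5.36.

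Other genes of the same pathways, in 9 lists of complex partners and histone modifiers, were measured beside the set. Of 140 tested, 45 (32.1%) were lower and 23 (16.4%) higher without overlap, against 19.2% and 18.9% of all tested genes. The median was -0.13, 0 passed the test, and the lists were not tested against the set or each other. Several lists below lie near the shares over all genes. Other SWI/SNF subunits had 8 of 16 lower and 2 higher, with the actin-like subunit Actl6a at -0.94 (SE 0.32) and Bcl7c at -0.97 (SE 0.35). Actl6a had 9.11 and 9.50 in the mutants, against 10.35 and 10.14 in the controls. Histone chaperones and assembly factors had 11 of 24 lower and 1 higher, among them Npm1 at -1.27 (SE 0.24) and Nap1l1 at -1.20 (SE 0.39). Among acetyltransferases, 4 of 12 were lower and 1 higher, and Hat1, which acetylates newly made histone H4, stood at -1.09 (SE 0.39).

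For the next lists too, the shares of all tested genes without overlap were 19.2% lower and 18.9% higher. Partners in the NuRD, Sin3 and CoREST complexes showed 1 of 18 lower and 3 higher, with the CoREST gene Rcor3 at 1.05 (SE 0.35). PRC1 core genes had 4 of 11 lower and 2 higher, and PRC2 accessory genes 1 of 5 lower, Mtf2 at -0.68 (SE 0.35), and 2 higher. Histone methyltransferases had 7 of 24 lower and 4 higher, and demethylases 4 of 18 lower and 6 higher, with Kdm7a at 1.19 (SE 0.38). Kdm7a had 8.97 and 9.35 in the mutants, against 8.32 and 7.61 in the controls.

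Genes that bind or remove DNA methylation split both ways. Without overlap, 5 of 12 were lower and 2 higher, against 19.2% and 18.9% of all tested genes. The methyl-CpG domain gene Mbd3 stood at -1.49 (SE 0.61) and the base excision nuclease gene Apex1 at -0.81 (SE 0.33). Mbd3 was dim, with 4.85 and 3.78 in the mutants, against 5.11 and 6.51 in the controls. Its value in mutant replicate 2 lay below the filter minimum of 4.79. The growth arrest genes Gadd45g, at 1.40 (SE 0.47), and Gadd45b, at 1.09 (SE 0.45), stood on the higher side. Gadd45g had 7.79 and 6.48 in the mutants, against 5.75 and 5.71 in the controls, with mutant replicate 1 well above mutant replicate 2.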

How the data were processed

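RNA of 4 samples was amplified in 2 rounds and hybridised to single-colour expression arrays, per the series' design text. Per the submitters' processing notes, the authors used MAS5, and the deposited table holds 1 linear intensity per probe set and array. No source used here gives its version or scaling target. This method subtracts mismatch probe signal, so dim probe sets are noisy, and precision is limited by the number of arrays.

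Of 45101 probe sets, 64 controls were left out. Of the other 45037, 34945 carried 1 gene symbol, 932 several and 9160 none, and only the first named a gene. Because trimmed means (2%) of the arrays differed by up to 1.53-fold, the log2(intensity + 5) values of the deposited intensities were quantile-normalized. The offset is the 20th percentile of the deposited values, rounded. Probe sets at or above the median mean signal (4.79) were kept, 22519 in all. A gene was read from its brightest probe set over the 4 arrays. Limma (3.58.1, R 4.3.3) compared mutant with control (lmFit, eBayes with trend, no covariate, two-sided, Benjamini-Hochberg over all kept probe sets, 2 residual and 6.4 prior degrees of freedom), and the code was tested on simulated data. Fold changes on this scale understate dim genes.

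Members, lists and tests were chosen with earlier results of these data known. Names were given by rule: a fixed list of anchor genes, up to 4 genes of smallest p per role or list, and any member. Over all kept probe sets, same-numbered arrays did not deviate together (correlation 0.034), so the replicate number was not taken as a pairing. Some groups did shift with it. In replicates 1 and 2, enterocyte means were 12.03 and 11.19 in mutants, and 11.87 and 11.08 in controls. Smarc means, less the mean over the 4 arrays, were -0.27 and 0.08, and -0.08 and 0.28. HP1 means did not, at -0.56 and -0.39, and 0.63 and 0.32. The part of such shifts in the overlap calls was not tested. Alternatives covered scaling, pseudocount, filter, eBayes settings, a replicate block, averaging of probe sets, and leaving out each array.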

Additional observations from a re-analysis of the deposited data

How the results depend on the processing

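Counts past the test stayed at 0 in either direction under every alternative run, the replicate block included, where 1 of all probe sets passed and 0 members did. Without mutant replicate 2, 85 probe sets passed, without mutant replicate 1, 19, and with median centring, 102, of which 0 represented members. The 27 genes lower without overlap became 17 without scaling of the deposited values and 14 with median centring. With that centring the median over all genes was 0.13, and the median of the set was 0.21 below that of all genes under either scaling, against 0.24 as reported. The 4 genes higher without overlap became 7 with no filter on dim probe sets, where 65 genes were tested and 18% of all genes were higher. Leaving out 1 array, which lets groups separate more often, gave 29 to 36 lower and 5 to 16 higher genes of the 55. Of all genes, 33 to 37.2% were then lower and 32 to 38.6% higher. The median of the set was -0.34 to -0.18. The alternatives kept the direction of 33 of the 55 genes, among them 25 of the 27 lower and all 4 higher ones. Signs turned on the values as deposited for Smarcd2 (0.15), Smarca4 (0.068), Hdac4 (-0.030), Cbx8 (-0.028) and Hdac10 (-0.011). With median centring they turned for Smarcd2 (0.27), Smarca4 (0.19), Rbbp4 (0.056), Chd8 (0.061) and Chd6 (0.051). With the mean of all kept probe sets they turned for Smarca4 (0.046), Smarce1 (-0.12), Hmgn3 (-0.19), Dnmt3a (0.38) and Cbx6 (0.10). The Dnmt3a mean takes in its dimmest kept probe set, at 1.65. With 1 array left out, signs also turned within these ranges: Cbx6 -0.66 to 0.48, Cbx7 -0.027 to 0.48, Cbx8 -0.14 to 0.25, Chd2 -0.34 to 1.19, Chd3 -0.30 to 0.70, Chd4 -1.19 to 0.52, Chd6 -0.22 to 0.20, Chd8 -0.37 to 0.26, Hdac11 -0.11 to 0.42, Hdac4 -0.17 to 0.28, Hdac5 -0.48 to 0.017, Hdac7 -0.091 to 0.42, Hmgn3 -0.28 to 0.33, Smarca2 -0.50 to 0.10, Smarca4 -0.36 to 0.20, Smarcc1 -1.11 to 0.060, Smarcc2 -0.32 to 0.48, Smarcd2 -0.37 to 0.13 and Smarce1 -0.52 to 0.80. The cause of these changes was not tested.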
